A study of Mus musculus with 16 samples.

Results

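Matrix metalloproteinases (MMPs), ADAMs, ADAMTS proteases, ADAMTS-like proteins and the tissue inhibitors of metalloproteinases (TIMPs) were followed by name: every gene whose symbol begins with Mmp, Adam, Adamts or Adamtsl and a digit, plus Timp1 to Timp4, and leaving out pseudogenes. The rule found 84 of the 41325 genes in the tables: 23 MMP, 33 ADAM, 19 ADAMTS, 5 ADAMTSL and 4 TIMP genes. The rule used names only, not measured values, but the family was chosen with earlier results of these data known. The cells were immortalized mouse preadipocytes, precursors that turn into fat cells in culture, of the strain C57Bl6/J and the genotype wild type. They had been given no agent or had been pre-treated with Il13 (interleukin-13, IL-13, a cytokine of type 2 immunity) for 16 h, and polyadenylated RNA was taken at day 0 or at day 6 of differentiation. Each pair of treatment and day had 4 libraries, 16 in all. Neither separate cultures for the libraries of a group nor the origin of the line is given in the labels, and every p-value therefore rests on a spread between libraries that may be technical alone.

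MMPs are zinc proteases that are made as inactive precursors and, once activated, cut collagens, proteoglycans and other matrix proteins. TIMPs bind the active site of MMPs, and Timp3 also inhibits several ADAM and ADAMTS proteases. ADAMs with a zinc site release the outer parts of membrane proteins such as growth factors and Notch receptors, while ADAMs without the site act in adhesion. ADAMTS proteases are secreted, and some trim procollagen while others cut the proteoglycans aggrecan and versican. ADAMTS-like proteins resemble them but have no protease domain. In fat tissue, precursors replace a fibrous matrix with a basement membrane as they differentiate, and Mmp14 is the membrane-bound collagenase known for a part in that change.

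Library totals lay between 15253031 and 18112087 counts. The preadipocyte markers Pdgfra, Pdgfrb, Ly6a and Thy1 summed to 1164 to 1242 CPM (counts scaled to a common library size) in untreated and 1251 to 1311 in IL-13 libraries at day 0, where Ly6a was higher by 0.94 on the log2 scale (SE 0.079), and to 374 to 486 at day 6, though Pdgfra alone was not called between the days in untreated cells (-0.05, SE 0.084). The adipocyte markers Adipoq, Fabp4, Plin1 and Cidec summed to 98.6 to 116 CPM at day 0 and 17700 to 19890 at day 6. Of the 4 smooth muscle genes that many fibroblasts also express in culture, the sum was 4045 to 5387 CPM at day 0 and 32.5 to 47.4 at day 6. The 6 macrophage markers summed to 4.68 to 6.10 CPM in untreated and 6.47 to 8.61 in IL-13 libraries at day 0 and to at most 3.29 at day 6, with Adgre1 at 0 counts throughout. Those tested at day 0 went different ways after IL-13: Csf1r was higher (1.46, SE 0.22), Lyz2 lower (-0.69, SE 0.23) and Cd68 not called (-0.07, SE 0.23). The 4 epithelial markers summed to 0.268 to 0.678 and 1.54 to 2.81 CPM at day 0 and to at most 0.198 at day 6, where Epcam was at 0, and the 4 endothelial markers to at most 3.32 CPM in any library. The part of the macrophage and epithelial markers in the IL-13 results was not tested. An index of nuclear RNA (the mean log2 CPM of 24 nuclear-retained RNAs and splicing factor transcripts) did not overlap between treatments: it was 5.59 to 6.12 in untreated and 5.36 to 5.45 in IL-13 libraries at day 0, and 6.03 to 6.46 and 5.38 to 5.82 at day 6. It was highest in untreated libraries 1 and 4 at day 0 and in untreated libraries 1 and 2 at day 6. Its part in the IL-13 results was not tested beyond the fits with the index as a covariate and without those libraries. In bulk RNA, fewer cells that express a gene and less RNA per cell cannot be told apart.

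Of the 84 genes, 63 had at least 1 count in the 16 libraries and 39 had enough to be tested in some comparison. The 21 genes without a count were 13 ADAMs, 5 MMPs and 3 ADAMTS genes, among them the interstitial collagenases Mmp1a and Mmp1b and the macrophage elastase Mmp12. Another 24 genes had 1 to 82 counts over all 16 libraries and failed the filter on low counts in every comparison.

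The TIMPs were the most abundant of the families in preadipocytes and MMPs the most abundant proteases. TPM values (transcript counts scaled to a common library size), which divide counts by transcript length, allow genes to be compared. Summed TPM of the TIMPs was 1310 ± 35.1 (SD, n = 4) in untreated cells at day 0 and 1788 ± 37.0 after IL-13, against 119 ± 11.1 and 107 ± 4.33 at day 6. MMPs summed to 1146 ± 42.3 and 978 ± 77.8 at day 0, and to 356 ± 21.6 and 321 ± 10.2 at day 6. Thus the TIMPs were above the MMPs in every day 0 library and below them in every day 6 library. The TIMP to MMP ratio within a library, which does not depend on scaling between libraries, was 1.07 to 1.22 in untreated and 1.68 to 1.93 in IL-13 cells at day 0, without overlap. At day 6 the ratio was 0.321 to 0.350 in untreated and 0.327 to 0.346 in IL-13 cells, which overlapped.

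The ADAMTSL sum was also far lower at day 6 in untreated cells, and those of zinc-site ADAMs and ADAMTS genes were lower by less. ADAMs with a zinc site summed to 468 ± 46.1 TPM in untreated cells at day 0 and 364 ± 25 at day 6, ADAMTS genes to 305 ± 24.2 and 174 ± 12.3, and ADAMTSL genes to 59.0 ± 7.24 and 7.65 ± 0.606. TPM is not adjusted for the bulk of genes: over 11633 genes with a mean of at least 1 TPM, the median log2 change after IL-13 at day 0 was -0.20. Against that median, the log2 change of the summed TPM was 0.65 for TIMPs, 0.32 for ADAMTS genes, -0.03 for MMPs and -0.10 for zinc-site ADAMs. The lower MMP sum after IL-13 was thus close to the shift of the median gene, whereas the TIMP sum went the other way.

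**Figure D1:**
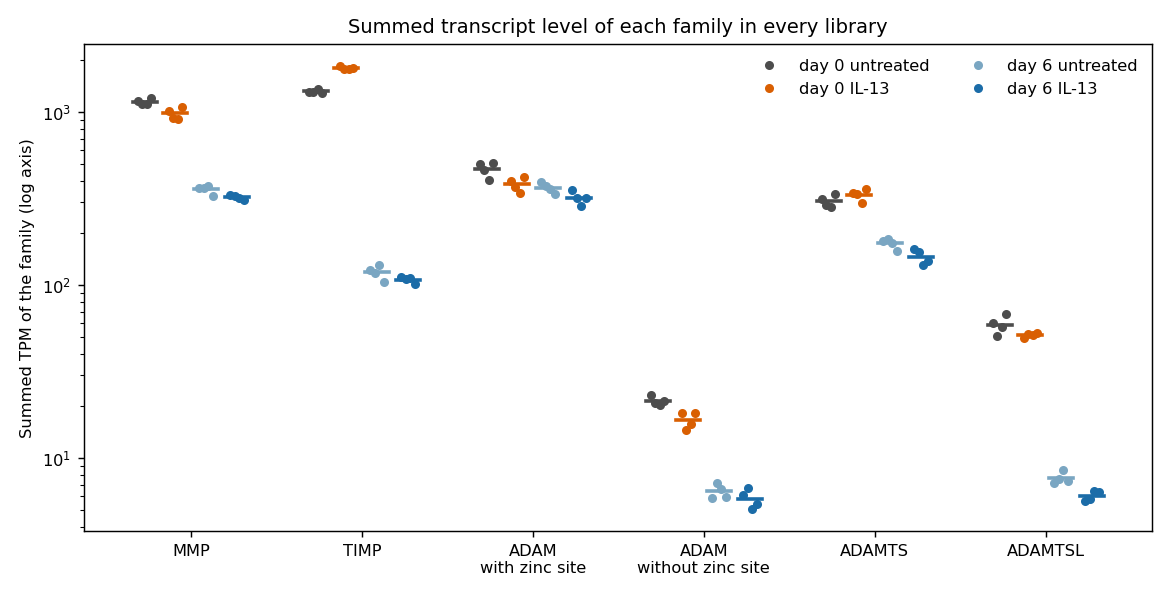
Summed TPM of each family on a log axis, with a point for each of the 16 libraries and a line at the mean of each group of 4. TIMPs lie at 1281 to 1360 in untreated and 1756 to 1836 in IL-13 libraries at day 0, and at 101 to 131 in both groups at day 6.

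A few genes made up most of each family. In untreated cells at day 0, Mmp14 gave 51.1% of the MMP TPM, and Mmp2, a gelatinase that Mmp14 activates, gave 14.0%. At day 6 Mmp2 led with 33.5%, followed by Mmp19 with 29.7% and Mmp14 with 21.8%. Timp2, which also takes part in the activation of pro-Mmp2 at the cell surface, gave 56.4% of the TIMP TPM at day 0 and 79.9% at day 6. Adam9 led the ADAMs at day 0 with 36.6% and Adam12 at day 6 with 34.4%. Among ADAMTS genes, Adamts2 and Adamts1 led untreated day 0 cells with 24.2% each, and after IL-13 Adamts14 came second to Adamts2 with 23.2%.

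The question of the IL-13 comparison at day 0 was what the pre-treatment changed in cells not yet differentiated. All 3 tested TIMPs rose, the procollagen-cutting Adamts14 and the proteoglycan-cutting Adamts15 rose most, and the ADAMTS-like Adamtsl3 fell most. Among 38 tested members, 13 rose and 11 fell at an adjusted p under 0.05 (edgeR's quasi-likelihood test, adjusted by Benjamini-Hochberg over all genes tested). Members were called in 63.2% of cases against 47.9% of all 12274 tested genes (23.7% higher, 24.2% lower), and 4 members against 4.24% of all genes changed at least 2-fold. The median log2 fold change was 0.04 for the members and -0.01 for all genes. Scaling by total counts, which shifts the median gene to -0.13, gave 10 higher and 14 lower, and with the nuclear index as a covariate 7 members stayed called: Adamts14, Adamts15, Timp2, Timp3 and Adamtsl5 higher, Adamts4 and Adamtsl3 lower. The other 17 calls were lost in that fit. Since the index did not overlap between treatments, that fit could hardly tell it apart from IL-13, and SEs were wider. Adam17 went from -0.26 (SE 0.050) to -0.22 (SE 0.0915, edgeR adjusted p = 0.199) and Adamts1 from -0.27 (SE 0.059) to -0.23 (SE 0.105, 0.25). Adamts2 went from 0.35 (SE 0.056) to 0.22 (SE 0.0941, 0.205) and Adam10 from 0.21 (SE 0.065) to 0.34 (SE 0.115, 0.0911). A call lost there does not show that nuclear RNA made the change.

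On mm10, Timp2 lies at 11:118301069-118355740, Timp1 at X:20870166-20874735 and Timp3 at 10:86300372-86349506. Timp2 stood at 732, 805, 855 and 738 CPM in the untreated libraries and at 1302, 1297, 1299 and 1293 in the IL-13 libraries. Every IL-13 library was above every untreated one, and the IL-13 libraries were nearly alike. The log2 fold change was 0.72 (SE 0.062, adjusted p = 3.06e-07, edgeR). Timp1, a secreted inhibitor of most MMPs, stood at 96.5, 101, 116 and 90.0 CPM untreated and 147, 153, 168 and 129 after IL-13, again without overlap (log2 fold change 0.55, SE 0.081, edgeR adjusted p = 0.000127). With the nuclear index as a covariate its change was 0.27 and no longer called. Timp3, which binds to the matrix, stood at 340, 344, 350 and 320 CPM and at 525, 489, 467 and 500, so that all IL-13 libraries were higher (0.53, SE 0.055, edgeR adjusted p = 2.24e-06). Exons of another gene on the opposite strand cover 21.3% of the Timp3 exon bases, and whether counting used the strand is not given in the sources used here. Timp4 had 5 counts over the untreated and 3 over the IL-13 libraries and was not tested.

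Of 8 tested MMP genes at day 0, 3 rose and 1 fell, a share near the 47.9% of all genes, and none of the 4 changed 2-fold. Mmp17, a membrane-anchored MMP, stood at 3.74, 3.76, 3.91 and 3.48 CPM in untreated and at 4.97, 5.95, 5.82 and 6.39 in IL-13 libraries, which did not overlap (log2 fold change 0.62, SE 0.12, edgeR adjusted p = 0.000873). Mmp23, a membrane MMP with a short precursor part, rose by 0.32 (SE 0.054) from 70.0 to 80.7 CPM to 93.8 to 96.1. Mmp28, a secreted MMP, was higher by 0.31 (SE 0.12, edgeR adjusted p = 0.0435), a call that was kept when 1 of the 8 libraries was left out and lost for the other 7. With the nuclear index as a covariate, none of these 3 stayed called. Mmp14 stood at 928, 962, 977 and 920 CPM untreated and 891, 853, 838 and 889 after IL-13, slightly lower without overlap (-0.14, SE 0.056, edgeR adjusted p = 0.0498), and the call was lost when any of the 8 libraries was left out. The log2 fold change of Mmp2 was 0.09 (SE 0.061, edgeR adjusted p = 0.221), with overlapping libraries at 142 to 158 CPM untreated and 142 to 172 after IL-13. The stromelysin-family Mmp11 (-0.17, SE 0.072), the membrane-type Mmp15 (0.12, SE 0.10) and Mmp19 (0.02, SE 0.052) were not called either.

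Of 12 tested ADAMs at day 0, 2 rose and 4 fell, all by less than 2-fold. That share of 50% was near the 47.9% of all genes. Adam19, a protease that can shed neuregulin, stood at 94.3, 86.2, 74.9 and 94.0 CPM in untreated and at 57.1, 53.5, 46.4 and 60.5 in IL-13 libraries. All IL-13 libraries were below all untreated ones (log2 fold change -0.70, SE 0.093, edgeR adjusted p = 8.95e-05), and with the nuclear index as a covariate the change was -0.33 and not called. Adam17, which releases tumour necrosis factor and growth factor ligands, fell from 85.5 to 93.3 CPM to 71.6 to 77.3 (-0.26, SE 0.050). Adam9 fell from 177 to 211 CPM to 153 to 168 (-0.31, SE 0.063). Adam10, the main Notch-cutting ADAM, went the other way, from 146 to 166 CPM to 165 to 199, with libraries that overlapped by a small margin (0.21, SE 0.065, edgeR adjusted p = 0.0132), a call lost under scaling by total counts (0.10) and without untreated libraries 1 and 4 (adjusted p = 0.0632). Adam15 rose by 0.33 (SE 0.058). Adam12 had a log2 fold change of 0.06 (SE 0.056), at 126 to 135 CPM untreated and 130 to 147 after IL-13. None of the 4 tested ADAMs without a zinc site rose, and Adam5 alone of them fell (-0.47, SE 0.15), at 3.05 to 3.74 CPM untreated and 2.15 to 2.81 after IL-13.

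ADAMTS genes held the largest changes at day 0, with 4 of 12 tested higher and 5 lower (75% called against 47.9% of all genes). Adamts14, which removes the amino-terminal propeptide of procollagens, stood at 26.1, 21.9, 24.1 and 28.6 CPM untreated and at 123, 135, 120 and 124 after IL-13. Every IL-13 library was far above every untreated one, and the log2 fold change was 2.30 (SE 0.075, edgeR adjusted p = 2.91e-12), or 4.93-fold. The gene lies at 10:61197112-61273438 and Adamts15 at 9:30899155-30922452 (mm10). Its relative Adamts2, with the same substrate class, rose by 0.35 (SE 0.056) from 173 to 203 CPM to 236 to 248, and Adamts3, the other member of this group, had no count. Adamts15, which cuts aggrecan and versican, stood at 1.59, 1.60, 1.5 and 1.55 CPM untreated and at 9.05, 7.92, 8.61 and 9.46 after IL-13, a 5.54-fold rise with no overlap (log2 fold change 2.47, SE 0.13, edgeR adjusted p = 7.33e-10). In TPM Adamts15 stayed low after IL-13, at 2.70 ± 0.303 (SD, n = 4) against 77.0 ± 4.85 for Adamts14.

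The other proteoglycan-cutting ADAMTS genes did not follow Adamts15. Adamts4 stood at 18.3, 19.0, 18.2 and 18.2 CPM untreated and 11.4, 13, 12 and 13.7 after IL-13, lower in every library (-0.57, SE 0.079, edgeR adjusted p = 4.97e-05). Adamts1 fell by 0.27 (SE 0.059) from 105 to 107 CPM to 77.8 to 93.1. Adamts5 (0.08, SE 0.051) and Adamts9 (0.14, SE 0.096) were not called, with overlapping libraries. Adamts6 and Adamts10, a related pair linked to fibrillin microfibrils, were both lower. Adamts6 stood at 9.63, 7.02, 4.95 and 8.84 CPM untreated and 3.59, 2.98, 3.38 and 3.07 after IL-13 (-1.24, SE 0.19, edgeR adjusted p = 0.000184). Adamts10 stood at 26, 15.3, 17.2 and 29.4 untreated and 13.2, 13.4, 14.1 and 12.9 after IL-13 (-0.73, SE 0.21, edgeR adjusted p = 0.0169). For both genes, the untreated libraries with the highest levels were 1 and 4, which also had the highest nuclear index. Without those 2 libraries the changes were -0.87 for Adamts6 and -0.28 for Adamts10, still called, and with the index as a covariate they were -0.29 and -0.00148, not called. The Adamts10 call was also lost without the filter on low counts (edgeR adjusted p = 0.0637). Adamts12, which cuts cartilage oligomeric matrix protein, rose by 0.23 (SE 0.056), and Adamts16 was lower by 0.55 (SE 0.20) at under 5 CPM with overlapping libraries.

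The 3 tested ADAMTS-like genes went different ways at day 0. Adamtsl3 (7:82335694-82614450, mm10) stood at 49.2, 46.5, 42.6 and 54.9 CPM untreated and 14.6, 16.7, 14.5 and 16.7 after IL-13, a fall in every library (-1.64, SE 0.088, edgeR adjusted p = 1.24e-09). Adamtsl5 stood at 30.2, 26, 32.8 and 34.3 untreated and 44.7, 48.6, 52.7 and 48.1 after IL-13, higher in every library (0.64, SE 0.081, edgeR adjusted p = 2.28e-05). Adamtsl4, a fibrillin-binding protein, was not called (0.27, SE 0.11).

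**Figure D2:**
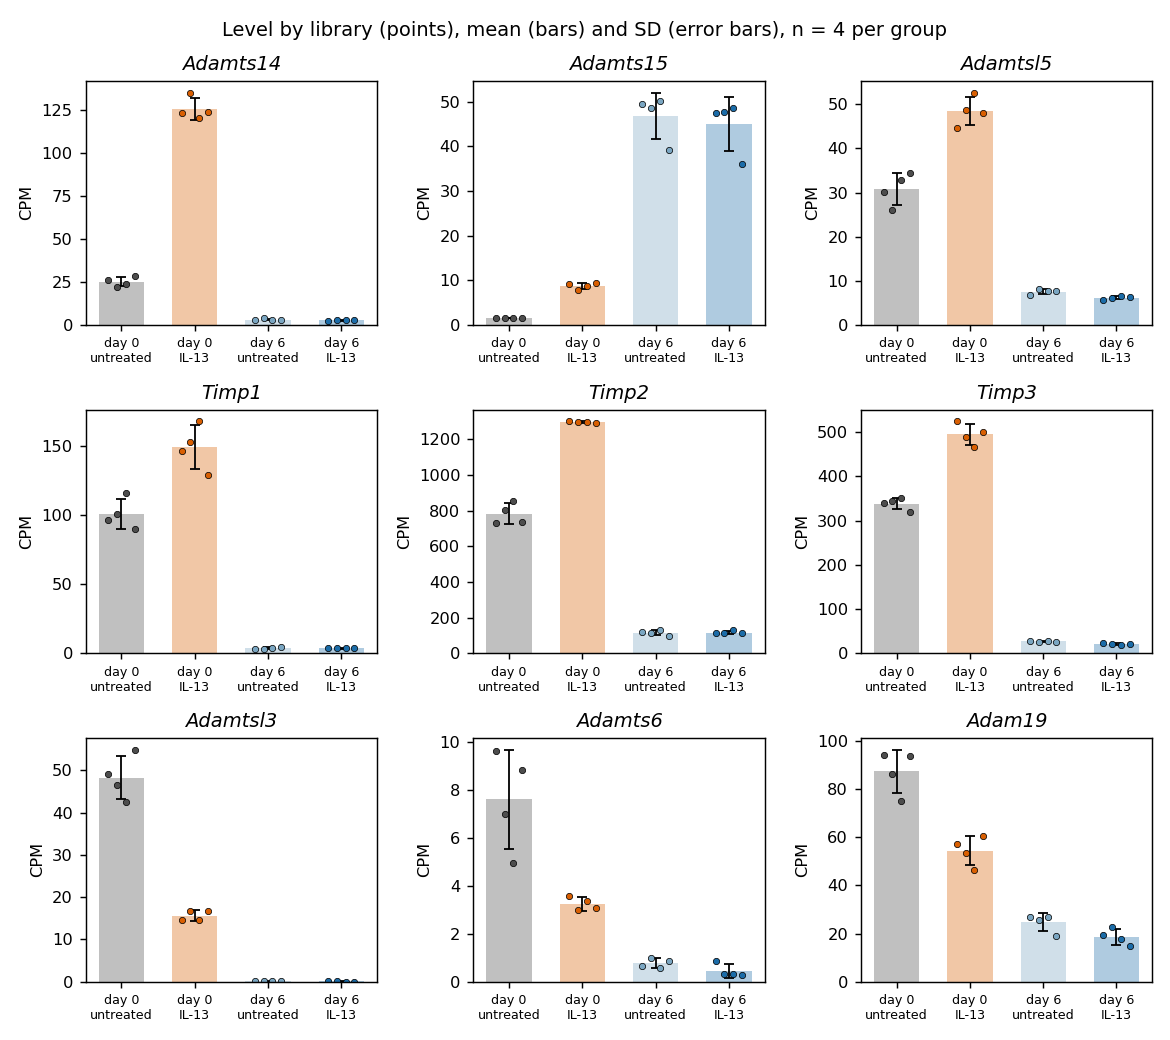
CPM of 9 members in the 4 groups, with points for libraries, bars for the mean and error bars for the SD (n = 4). Adamts14 rises from a mean of 25.2 to 126 CPM after IL-13 at day 0 and stands at 3.05 and 2.68 at day 6, whereas Adamts15 goes from 1.56 to 8.76 and then to 46.9 and 45.0.

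After 6 days of differentiation, few of the members differed by IL-13 pre-treatment. Of 34 tested members, 0 were called higher and 4 lower, Timp3, Adamts10, Adam8 and Adam1a, which is 11.8% against 6.55% of all 12352 tested genes (2.21% higher, 4.34% lower). At least 2-fold changes were called for 3 members and 0.988% of all genes. Adamts10 stood at 16.4, 16, 11 and 13 CPM untreated and 6.25, 5.77, 4.48 and 6.76 after IL-13, with no overlap (-1.26, SE 0.15, edgeR adjusted p = 0.00819). It was the only member called lower by IL-13 at both days. Timp3 stood at 26.8, 26, 27.4 and 26.4 CPM untreated and 23.9, 22.0, 19.1 and 21.3 after IL-13 (-0.29, SE 0.077, edgeR adjusted p = 0.0470), a call kept with 1 of the 8 libraries left out and lost with the other 7. Adam8, best known from myeloid cells, was at 0.638 to 1.25 CPM untreated and 0.134 to 0.408 after IL-13 (-1.81, SE 0.39), a call kept in 4 of the 8 fits with a library left out. Adam1a, a gene of sperm, was at 2.20 to 3.48 CPM and 0.434 to 1.24 (-1.82, SE 0.28), but 77.8% of its 50-base stretches occur in other annotated genes, so its counts are uncertain. None of the 4 stayed called with the nuclear index as a covariate or without untreated libraries 1 and 2.

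None of the members called higher at day 0 was called higher at day 6. Adamts14 was at 2.70 to 3.74 CPM untreated and 2.23 to 3.08 after IL-13 (-0.18, SE 0.17, edgeR adjusted p = 0.524), and Timp2 at 96.9 to 132 and 111 to 128 (0.02, SE 0.089, edgeR adjusted p = 0.899). Adamts15 was at 39.2 to 50.2 and 36.0 to 48.7 (-0.05, SE 0.11, edgeR adjusted p = 0.809). The difference itself, the IL-13 effect at day 6 minus that at day 0, was called for 10 of 39 members (1 higher, 9 lower; 25.6% against 8.06% of all 13157 tested genes, 3.12% higher and 4.95% lower), and reached 2-fold for 3 members against 2.07% of all genes. It was -2.51 for Adamts14 (SE 0.17, edgeR adjusted p = 1.97e-09), -2.54 for Adamts15 (SE 0.18, 3.19e-09), -0.85 for Timp3 (SE 0.087, 7.72e-07) and -0.72 for Timp2 (SE 0.11, 0.000117). Adamtsl5 had -0.95 (SE 0.13, edgeR adjusted p = 4.32e-05) and Mmp23 -0.53 (SE 0.13, 0.0132). For Adam17, called lower after IL-13 at day 0, it was 0.26 (SE 0.071, edgeR adjusted p = 0.0227). Adamts2, Adamts9 and Adam8 were called too, but in 2, 2 and 4 of the 16 fits with a library left out, and the Mmp23 call was kept in 8 of the 16. Timp1 was not called (-0.55, SE 0.18, edgeR adjusted p = 0.0612).

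**Figure D3:**
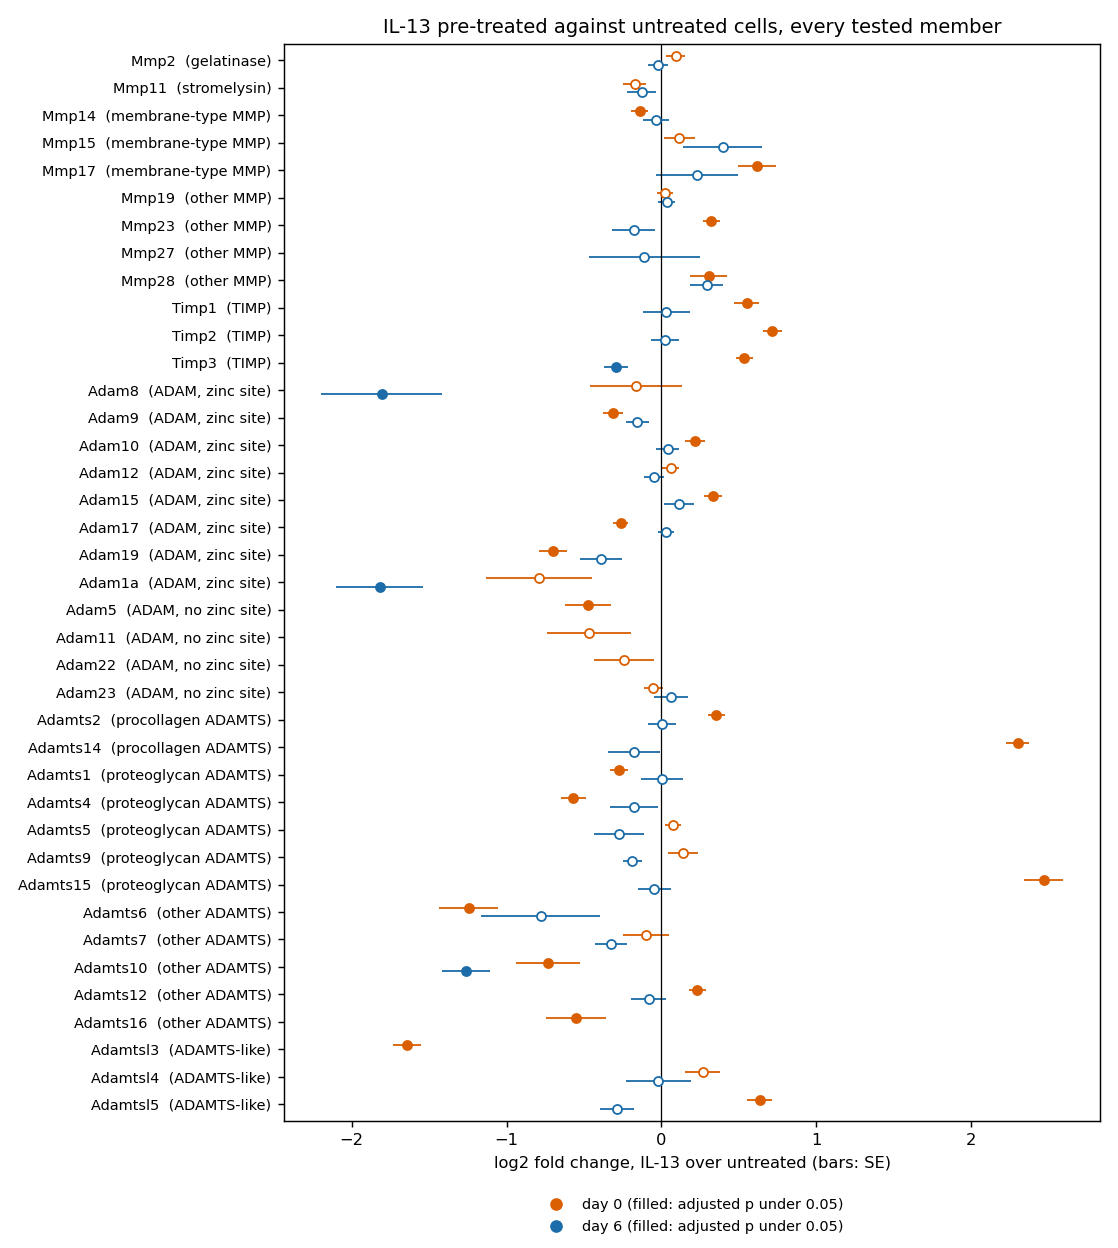
Log2 fold change of IL-13 over untreated cells with its SE for each tested member, at day 0 and at day 6, ordered by role, with filled points for an adjusted p under 0.05. At day 0 Adamts14 and Adamts15 lie above 2 and Adamtsl3 at -1.64, while at day 6 the only filled points are Adam8, Adam1a, Adamts10 and Timp3, all below 0.

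Differentiation changed nearly all tested members, and most fell. All 3 tested TIMPs, all 3 tested membrane-type MMPs and all 3 tested ADAMTS-like genes were lower at day 6, while Adamts15, Adamts9 and Adam12 were higher. In untreated cells 8 of 39 members rose and 29 fell, 94.9% in all against 80.5% of all 13157 tested genes (41.5% higher, 39% lower), and 28 members against 38.7% of all genes changed at least 2-fold. The median log2 fold change was -1.14 for the members and 0.04 for all genes. In IL-13 pre-treated cells 7 rose and 29 fell (80.8% of all genes called, 40.6% higher and 40.3% lower), with a median of -1.40, and 29 against 39.1% of all genes changed at least 2-fold. Both days came in separate tables, so any difference in handling between them and the day cannot be told apart, and the comparisons with the IL-13 ones share libraries.

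Timp1 showed the steepest fall among the 3 tested TIMPs: from 90.0 to 116 CPM at day 0 to 3.28, 3.09, 3.69 and 4.47 at day 6 in untreated cells, a log2 fold change of -4.79 (SE 0.11, edgeR adjusted p = 3.72e-19), and -5.34 (SE 0.11) in IL-13 cells. Timp3 fell by 3.67 (SE 0.065) and Timp2 by 2.76 (SE 0.082) on the log2 scale in untreated cells, to 26 to 27.4 and 96.9 to 132 CPM. Timp4, the TIMP best known from heart and fat, went the other way at a very low level, from 5 counts over the 4 untreated libraries at day 0 to 41 at day 6, and from 3 to 33 in IL-13 cells. It failed the filter on low counts, and without that filter it was called higher in untreated cells (3.03, SE 0.58, edgeR adjusted p = 2.78e-05).

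Among MMPs, Mmp14 fell from 920 to 977 CPM to 147, 146, 165 and 122 (-2.71, SE 0.075, edgeR adjusted p = 4.15e-18), and Mmp11 from 96.8 to 116 CPM to 22.3 to 24.8 (-2.16, SE 0.082). Mmp23 fell by 3.22 (SE 0.091), Mmp17 by 1.97 (SE 0.18) and Mmp15 by 1.35 (SE 0.19) on the log2 scale. Mmp2 hardly moved beside them, at 142 to 158 CPM on day 0 and 118 to 137 on day 6 (-0.22, SE 0.063, edgeR adjusted p = 0.00324). Mmp19 was not called (-0.06, SE 0.053), with libraries at 117 to 128 and 112 to 120 CPM. Mmp28 rose from 4.97 to 6.59 CPM to 11.8 to 15.5 (1.23, SE 0.11), and Mmp27 from at most 0.696 CPM to 0.986 to 1.60 (1.83, SE 0.54).

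Adam12, known for its link to adipogenesis in mice, stood at 135, 131, 126 and 134 CPM at day 0 and at 458, 430, 416 and 381 at day 6 in untreated cells. Every day 6 library was far above every day 0 one (1.68, SE 0.063, edgeR adjusted p = 7.17e-16). Adam17 rose a little, from 85.5 to 93.3 CPM to 107 to 109 (0.28, SE 0.050), and by 0.54 (SE 0.050) in IL-13 cells. Adam9 (-0.80, SE 0.071), Adam10 (-0.58, SE 0.072) and Adam15 (-0.55, SE 0.080) fell, and Adam19 more so (-1.83, SE 0.12). All 4 tested ADAMs without a zinc site fell: Adam5 (-3.79, SE 0.24), Adam22 (-2.32, SE 0.27), Adam23 (-1.40, SE 0.090) and Adam11 (-1.10, SE 0.38). Adam22 and Adam23 are receptors of the neuronal protein Lgi1.

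The 5 tested proteoglycan-cutting ADAMTS genes split by day. Adamts15 rose from 1.5 to 1.60 CPM to 49.6, 48.6, 50.2 and 39.2 in untreated cells, 29.9-fold (log2 fold change 4.90, SE 0.13, edgeR adjusted p = 2.75e-18), and from a higher start by 2.36 (SE 0.10) in IL-13 cells. At day 6 both treatments had reached like levels, which overlapped. Adamts9 rose from 8.40 to 9.32 CPM to 59.2 to 62.8 (2.77, SE 0.073). In the other direction, Adamts5, a main aggrecanase of cartilage, fell from 153 to 161 CPM to 22.4, 28.3, 22.2 and 15.7 (-2.82, SE 0.12), Adamts1 by 0.92 (SE 0.11) and Adamts4 by 0.62 (SE 0.12) on the log2 scale.

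Both tested procollagen-cutting genes fell, Adamts14 at -3.04 (SE 0.11) in untreated and -5.55 (SE 0.11) in IL-13 cells, and Adamts2 at -1.10 (SE 0.079) and -1.48 (SE 0.079). These are log2 fold changes. Adamts12 rose from 101 to 107 CPM to 144 to 198 (0.79, SE 0.096), while Adamts6 (-3.27, SE 0.25), Adamts7 (-1.14, SE 0.13) and Adamts10 (-0.64, SE 0.18, edgeR adjusted p = 0.00285, with overlapping libraries) were lower. Adamts16 went from 260 counts over the untreated libraries at day 0 to 1 at day 6. Adamtsl3 had the largest fall of the tested members, from 42.6 to 54.9 CPM to at most 0.198 (-8.71, SE 0.22, edgeR adjusted p = 1.02e-18), and Adamtsl5 (-2.03, SE 0.092) and Adamtsl4 (-2.03, SE 0.17) fell as well.

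**Figure D4:**
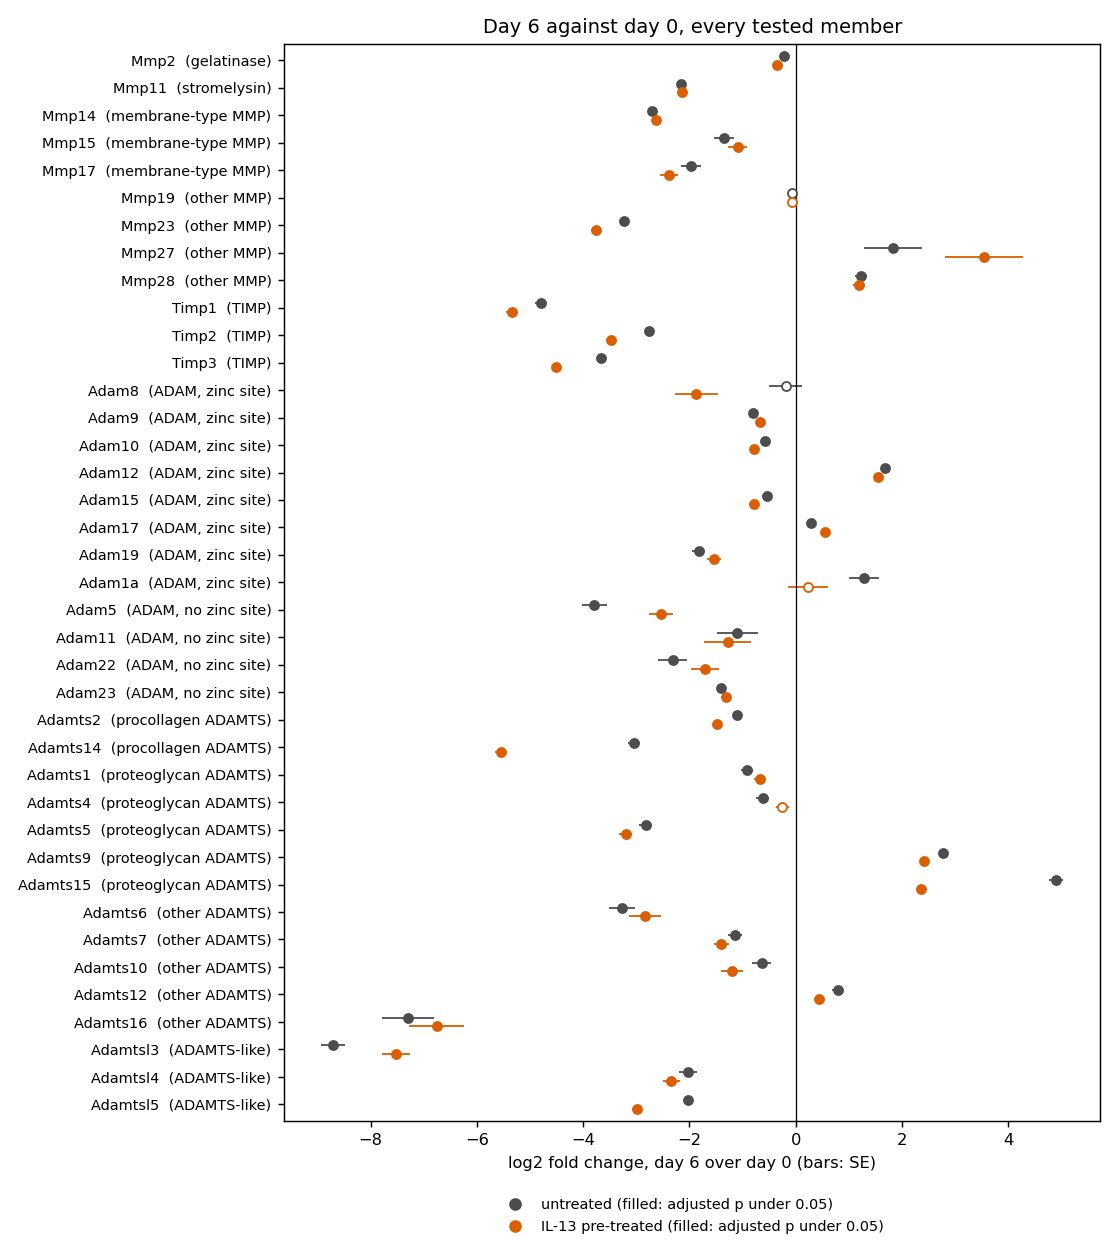
Log2 fold change of day 6 over day 0 with its SE for each tested member, in untreated and in IL-13 pre-treated cells, ordered by role, with filled points for an adjusted p under 0.05. Most members lie left of 0, Adamtsl3 and Adamts16 farthest, and Adamts15 lies at 4.90 in untreated and 2.36 in IL-13 cells.

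The collagenases, the gelatinase Mmp9 and, apart from Mmp11, the stromelysins had few or no counts in all 4 groups. Mmp3 had 0, 2, 10 and 5 counts over the 4 libraries of untreated day 0, IL-13 day 0, untreated day 6 and IL-13 day 6 cells, Mmp13 had 3, 2, 6 and 5, and Mmp9 had 6, 3, 2 and 3. In the same order the membrane-type Mmp25 had 45, 21, 0 and 1 counts and Adamts18 had 12, 7, 0 and 0, both most at day 0. These genes were chosen after their counts were seen, apart from Mmp3, Mmp13 and Mmp9. A set of 10 MMP genes, the collagenases and most stromelysins among them, lies in a cluster on chromosome 9 between 7272514 and 7699585 (mm10). The cluster had 224 counts in all, of which 186 were of Mmp27, and 5 of the 10 had no count. The promoter bases of 4 of them are shown as examples of a motif that most genes of the cluster hold. Mmp12 and Mmp7, not shown, have it 44 and 63 bases before a start site. The bases shown come from the RefSeq table for GRCm38.p6 and are the 150 bases before the start site, 5′ to 3′ on the gene's strand. Capitals mark TGANTCA, the motif of AP-1 (Fos and Jun factors). All 4 lie on the plus strand: Mmp13 at chr9:7272364-7272513, Mmp1a at chr9:7463991-7464140, Mmp3 at chr9:7445672-7445821 and Mmp10 at chr9:7502192-7502341.
Mmp13: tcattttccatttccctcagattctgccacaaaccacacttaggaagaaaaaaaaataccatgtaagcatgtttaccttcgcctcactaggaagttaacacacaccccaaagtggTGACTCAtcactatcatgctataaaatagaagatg
Mmp1a: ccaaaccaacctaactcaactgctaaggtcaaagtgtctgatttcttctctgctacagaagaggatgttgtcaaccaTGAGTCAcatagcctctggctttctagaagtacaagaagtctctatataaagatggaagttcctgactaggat
Mmp3: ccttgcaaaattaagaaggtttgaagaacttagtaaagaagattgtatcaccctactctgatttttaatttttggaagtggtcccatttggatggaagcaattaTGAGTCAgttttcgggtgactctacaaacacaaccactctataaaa
Mmp10: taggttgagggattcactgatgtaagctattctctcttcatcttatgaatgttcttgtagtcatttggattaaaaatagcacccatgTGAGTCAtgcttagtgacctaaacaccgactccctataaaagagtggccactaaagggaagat

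The motif begins 35 bases before the start site in Mmp13, 73 in Mmp1a, 46 in Mmp3 and 63 in Mmp10, reading TGACTCA in Mmp13 and TGAGTCA in the other 3. Windows of 300 bases (250 before and 50 after the start site) were listed for 53 of the 84 members. In the cluster, 8 of 12 windows, from 8 of the 10 genes, held the motif on either strand, and Mmp8 and Mmp27 had none. Outside the cluster 5 of 43 member genes had it, against 8.97% of all 27025 genes in the table. Since the motif is nearly palindromic, a match on both strands is the same site. Other motifs were counted too. TTGCNNAA, the motif of C/EBP factors, was in a window of Mmp3, Mmp7, Mmp8, Mmp10, Mmp12 and Mmp27 in the cluster. It was in 10 of the 53 member genes with a window, against 12.2% of all genes. The TEAD motif, GGAATG, was in 4 of the 53, against 16.6% of all genes.

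Promoters of 4 members that rose after IL-13 at day 0 are shown too, with the same length, source and marking. The Adamts14 window is at chr10:61273420-61273569 on the minus strand and that of Timp1 at chrX:20870016-20870165 on the plus strand. The Timp2 window is at chr11:118355412-118355561 on the minus strand and that of Timp3 at chr10:86300262-86300411 on the plus strand.
Adamts14: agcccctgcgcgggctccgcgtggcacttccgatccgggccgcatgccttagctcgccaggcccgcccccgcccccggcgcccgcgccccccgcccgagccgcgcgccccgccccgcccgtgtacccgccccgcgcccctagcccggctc
Timp1: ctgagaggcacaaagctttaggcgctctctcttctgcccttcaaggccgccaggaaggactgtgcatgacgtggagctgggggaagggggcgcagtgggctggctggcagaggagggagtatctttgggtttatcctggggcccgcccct
Timp2: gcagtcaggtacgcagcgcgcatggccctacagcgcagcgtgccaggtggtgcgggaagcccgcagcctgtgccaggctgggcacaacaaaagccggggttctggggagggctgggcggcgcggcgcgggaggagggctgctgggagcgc
Timp3: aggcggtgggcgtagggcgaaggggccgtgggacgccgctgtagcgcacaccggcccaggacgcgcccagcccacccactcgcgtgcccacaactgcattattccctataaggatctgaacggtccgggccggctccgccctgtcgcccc

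No capital appears in these windows, since none held TGANTCA. Start sites are those of RefSeq, which can differ from the gene bounds given above. By those bounds, the whole Timp2 window and a part of the Timp3 and Adamts14 windows lie inside the gene. Of the 11 risen members with a listed window, 0 had TGANTCA in the 300 bases, against 8.97% of all genes in the table. The STAT6 motif, for the factor that IL-13 signals through, is TTC and GAA with 4 bases between them. It was in 0 of these 11 genes and in 8.01% of all genes in the table. The STAT motif with 3 bases between them was in 1 of 11 (Mmp23) and in 9.55% of all genes. Of the 5 fallen members with a window, 1 (Adam19) held TGANTCA and the STAT6 motif, and 0 held the STAT motif. So few genes cannot be set apart from the shares of all genes. These counts describe the letters in the windows and say nothing of binding.

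The genes that activate MMPs, and other partners, were read from lists. Of all tested genes, 47.9% were called after IL-13 at day 0 and 6.55% at day 6, the shares to set beside these lists. Of 11 tested activators and surface partners, 5 were higher and 2 lower after IL-13 at day 0 (63.6%), with 0 called at day 6. Plau, the urokinase that makes plasmin, rose from a mean of 43.3 ± 2.94 to 96.1 ± 4.34 CPM (SD, n = 4; log2 fold change 1.14, SE 0.057, edgeR adjusted p = 5.21e-10). Cav1, a caveolin listed as a surface partner, rose by 0.69 (SE 0.052), and Bsg, an inducer of MMPs on neighbouring cells, by 0.37 (SE 0.066). The proprotein convertase Pcsk6 fell by 0.40 (SE 0.060) on the log2 scale.

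Other inhibitors and clearance genes, outside the TIMP family, were 2 higher and 2 lower of 7 tested at day 0 (57.1% against 47.9% of all genes). Tfpi2, a protease inhibitor of the matrix, rose by 2.43 (SE 0.14) from 1.74 to 9.52 CPM in the mean. Reck, a membrane inhibitor of several MMPs, fell by 0.59 (SE 0.086), and Serpinh1, a chaperone of collagen, rose by 0.43 (SE 0.068). None of the 8 tested at day 6 was called, against 6.55% of all genes.

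Partners of ADAM17, ADAM10 and other ADAMs had 3 of 10 higher and 1 lower at day 0, 40% against 47.9% of all genes. Rhbdf2, which brings Adam17 to the surface, rose by 0.50 (SE 0.11), and Tspan33, a tetraspanin that binds Adam10, by 2.76 (SE 0.38) at about 1 CPM, while the tetraspanin Tspan5 fell by 0.49 (SE 0.068). Of 11 tested proteins that ADAMs shed, 2 rose and 3 fell, a share near the 47.9% of all genes. Tnfrsf1b, a tumour necrosis factor receptor, rose by 0.16 (SE 0.054). Il6ra, the interleukin-6 receptor, rose from a mean of 11.2 to 33.8 CPM (1.57, SE 0.10, edgeR adjusted p = 1.26e-08), and Notch1 (-0.53, SE 0.098), Notch2 (-0.56, SE 0.11) and Vcam1 (-0.31, SE 0.052) fell. Among 11 tested substrates and binding partners of ADAMTS proteins, 3 rose and 5 fell (72.7% against 47.9%). The microfibril genes Fbn1 (1.30, SE 0.061) and Fbn2 (1.07, SE 0.10) and the collagen cross-linking enzyme Lox (0.77, SE 0.066) were higher and the latency protein Ltbp1 (-0.73, SE 0.057) was lower. At day 6, 6.55% of all genes were called. Tnfrsf1a (0.22, SE 0.059) was the only gene called then among 12 shed proteins and Ltbp1 (-0.49, SE 0.13) the only one among 11 ADAMTS substrates. Of 10 ADAM partners 0 were called.

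With differentiation in untreated cells, 80.5% of all tested genes were called (41.5% higher, 39% lower), so a call alone sets no list apart. Of the ADAMTS substrates, 10 of 12 tested fell and 2 rose. Ltbp1 fell by 5.16 (SE 0.078), the proteoglycan Bgn fell by 3.75 (SE 0.091) and the fibronectin gene Fn1 fell by 4.51 (SE 0.12) on the log2 scale, whereas the proteoglycan Dcn rose from a mean of 2.21 to 112 CPM (5.66, SE 0.15). Activators and surface partners fell in 6 and rose in 4 of 11 cases, among them Plau (-2.20, SE 0.076), Plat, the tissue plasminogen activator (-3.08, SE 0.11), the hyaluronan receptor Cd44 (-2.20, SE 0.068) and Bsg (2.10, SE 0.10). Other inhibitors and clearance genes fell in 6 and rose in 3 of 9 cases, with the collagen chaperone Serpinh1 at -2.14 (SE 0.094) and Lrp1, which clears proteases from the surface, at -1.82 (SE 0.088). Papln, a protein related to ADAMTS-like proteins, went from a mean of 0.0154 to 3.15 CPM. Partners of ADAM17, ADAM10 and other ADAMs fell in 6 and rose in 4 of 10 cases. Sh3pxd2b, an adaptor of invasive cell protrusions, was at -1.81 (SE 0.055) and Tspan5 at -2.44 (SE 0.075), while the Adam10 partners Tspan15 (2.32, SE 0.089) and Tspan33 (6.00, SE 0.25) were higher. Shed proteins fell in 7 and rose in 4 of 13 cases. The preadipocyte factor Dlk1 was at -4.12 (SE 0.16), the receptor Tnfrsf1b at -1.89 (SE 0.073), the adhesion protein Vcam1 at -2.0 (SE 0.086) and the chemokine Cxcl16 at 2.93 (SE 0.13).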

How the data were processed

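The study sequenced polyadenylated RNA of immortalized mouse preadipocytes in 16 libraries, 4 in each of 4 groups, with Illumina's TruSeq Stranded kit from 2 ug of total RNA, per the labels. The authors deposited a table for each day, with whole-number total counts per gene and TPM values for each library, per the file headers; the build was mm10, per the submitters' processing notes, and no source used here names the aligner, counter, annotation or strand setting. The deposited counts were not normalized, and the deposited TPM values are scaled to transcript length and library size. The RPKM and CPM columns, fold changes and p-values in the authors' deposited tables were not used.

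Libraries were assigned to groups from the labels. Counts were tested with edgeR 4.0.16 in R 4.3.3 (quasi-likelihood, robust, TMM scaling, edgeR's expression filter at 10 counts per gene, total at least 15), with Benjamini-Hochberg adjustment over all genes tested and a threshold of 0.05. For IL-13, each fit used the 8 libraries of its day; the day comparisons and the difference between days used all 16. The SE is the log2 fold change over the square root of F. CPM levels use TMM over all 16 libraries. Alternatives were DESeq2 1.42.0, total count scaling, no filter, a replicate block, length offsets, the nuclear index as a covariate, and leaving out libraries. The script was checked on simulated data. Promoters came from RefSeq for GRCm38.p6. ADAMs were split by a zinc site (HExxHxxGxxH) in translations of GENCODE vM21 coding sequences. No 2 libraries agreed within sampling noise. Counts under about 1 CPM carry large counting error.

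The members and lists were chosen with earlier results of these data known. Members named were those called by IL-13 with a log2 change of at least 0.58 and a mean log2 CPM of at least 1, the 10 largest changes by day, those called for the difference between days, and 15 others chosen by name; further members were named to complete the counts of their role, and up to 4 genes per list by smallest p. The values of 1 listed gene are not reported here.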

Additional observations from a re-analysis of the deposited data

Results flagged for a closer look

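In 103 groups of 4 libraries, the highest or lowest library was checked for a gap to the others beyond Dixon's 95% critical value of 0.829, which chance passes in about 5% of groups; 10 groups did. Library 4 at day 6 was low for several members: untreated library 4 had 95.1 CPM of Adam10 against 107 to 108 in the others, 19.2 CPM of Adam19 against 25.8 to 27, and 39.2 CPM of Adamts15 against 48.6 to 50.2, and IL-13 library 4 had 36.0 CPM of Adamts15 against 47.6 to 48.7. At day 0, IL-13 library 3 had 77.8 CPM of Adamts1 against 90.5 to 93.1, untreated library 2 had 19.0 CPM of Adamts4 against 18.2 to 18.3, and untreated library 3 had 158 CPM of Mmp2 against 142 to 143. Near the limit of counting, Adamts6 had 0.866 CPM in IL-13 library 1 at day 6 against 0.291 to 0.334, Mmp13 had 0.185 CPM in untreated library 2 at day 0 against 0 in the others, and Mmp9 had 0.116 CPM in untreated library 4 at day 6 against 0.

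The IL-13 effect differed between the days, by edgeR's test of the difference, for 9 named members. A call for that difference was 1 of the rules for naming, so the count follows from the choice. Of all 13157 tested genes, 8.06% were called. With a library left out, the Adamts2 and Adamts9 calls were each kept in 2 of 16 fits and the Mmp23 call in 8. The log2 fold change at day 6 minus that at day 0 was 0.26 for Adam17, -2.51 for Adamts14, -2.54 for Adamts15, -0.38 for Adamts2, -0.35 for Adamts9, -0.95 for Adamtsl5, -0.53 for Mmp23, -0.72 for Timp2 and -0.85 for Timp3.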

How the results depend on the processing

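No called result of the 26 named members changed sign under the alternatives run. At day 0, the 24 called members were 7 with the nuclear index as a covariate and 20 to 25 with a library left out, and 20 stayed called in every such fit; the exceptions were Adam5, Adamts16, Mmp14 and Mmp28. At day 6, the 4 called members were 0 with the nuclear index as a covariate, 0 without untreated libraries 1 and 2, 7 under total count scaling and 2 to 7 with a library left out. The index did not overlap between treatments at either day, so the fits with it could hardly tell it apart from IL-13. For the difference between days, the 10 called were 6 without day 0 untreated libraries 1 and 4 and day 6 untreated libraries 1 and 2, and 6 to 11 with a library left out. The day comparisons kept 37 to 38 (untreated) and 36 to 38 (IL-13) with a library left out. Replicate numbers were not taken to pair the samples, since not every correlation was over 0.1: same-numbered deviations correlated at -0.0431 to 0.180 at day 0 and 0.00611 to 0.215 at day 6, and 3 of the 4 untreated libraries at each day correlated best with their own number, a hint from the data and not from the design. With the replicate number as a block, 27 members were called at day 0, 9 at day 6 (1 higher, 8 lower), 37 and 37 for the days and 11 for the difference. Of the values of single named members under the alternatives, 2198 kept their side of the threshold, 87 lost a call and 30 gained one, and the cause was not tested. Depth limits the 24 untested members with counts, of which 18 had under 20.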
